A study of Mus musculus with 58 samples.

Results

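The insulin-like growth factor (IGF) system was followed through 9 genes in adipose stem cells (ASC) sorted from the inguinal white adipose tissue (iWAT) of mice: the ligand gene Igf1, the receptor genes Igf1r and Igf2r, and the binding protein genes Igfbp2, Igfbp3, Igfbp4, Igfbp5, Igfbp6 and Igfbp7. Members were the rows of the count table whose Ensembl identifiers map to these symbols, and all 9 were found among 56953 genes. Of these, 8 reached 5 reads in more than 3 libraries and could be tested among 12464 genes, while Igfbp2 did not. The experiment comprised 58 bulk libraries of C57BL6/J mice, in which control males gave 7 ASC1 and 8 ASC2 libraries, castrated males 8 and 8, control females 8 and 8, and ovariectomized females 3 and 8. Gonads were removed at 4 weeks of age and tissue was taken at 10 weeks. ASC1 were sorted as CD45-/CD31-/CD34+/DPP4- cells and ASC2 as CD45-/CD31-/CD34+/DPP4+ cells.

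IGF1 is a growth factor made in liver and, locally, in many connective tissue cells, where growth hormone is a known inducer. It signals through the tyrosine kinase receptor IGF1R, whereas IGF2R, also known as the cation-independent mannose-6-phosphate receptor, mainly takes up IGF2 and carries lysosomal enzymes. The binding proteins hold IGFs in the extracellular space and extend or restrict their access to the receptor, IGFBP6 has a preference for IGF2, and IGFBP7 binds IGFs weakly. In fat, IGF1 is known as a signal for preadipocyte proliferation and differentiation.

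The members lie on 7 mouse chromosomes in RefSeq, with Igfbp2 and Igfbp5 as neighbours on chromosome 1, Igfbp3 beside Igfbp1 on chromosome 11, Igfbp4 elsewhere on chromosome 11, and Igf1, Igf1r, Igf2r, Igfbp6 and Igfbp7 on chromosomes 10, 7, 17, 15 and 5. The 250 bases before the annotated start are shown for the 4 members that rose together in ASC1 of ovariectomized females, from RefSeq on build GRCm38.p6, which is older than the build the reads were quantified on. The windows are chr10:87860861-87861110 (+ strand) for Igf1, chr11:99040994-99041243 (+ strand) for Igfbp4, chr1:72874866-72875115 (- strand) for Igfbp5 and chr15:102143936-102144185 (+ strand) for Igfbp6, written 5′ to 3′ on the gene's strand with matches to the 4 motifs searched in capitals.
Igf1: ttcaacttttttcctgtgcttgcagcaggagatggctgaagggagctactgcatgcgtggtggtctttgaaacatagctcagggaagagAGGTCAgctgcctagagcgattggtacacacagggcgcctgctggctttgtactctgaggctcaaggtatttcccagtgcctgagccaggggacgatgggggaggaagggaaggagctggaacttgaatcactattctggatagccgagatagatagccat
Igfbp4: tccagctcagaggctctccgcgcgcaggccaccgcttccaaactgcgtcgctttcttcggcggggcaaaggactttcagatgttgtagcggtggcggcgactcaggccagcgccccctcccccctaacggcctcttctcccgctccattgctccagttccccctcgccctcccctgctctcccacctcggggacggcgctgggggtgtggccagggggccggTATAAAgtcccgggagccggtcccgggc
Igfbp5: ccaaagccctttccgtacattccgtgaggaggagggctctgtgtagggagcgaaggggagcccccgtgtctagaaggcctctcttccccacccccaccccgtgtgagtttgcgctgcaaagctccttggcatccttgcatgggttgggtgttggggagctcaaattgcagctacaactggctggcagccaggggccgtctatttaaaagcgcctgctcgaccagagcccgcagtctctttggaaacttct
Igfbp6: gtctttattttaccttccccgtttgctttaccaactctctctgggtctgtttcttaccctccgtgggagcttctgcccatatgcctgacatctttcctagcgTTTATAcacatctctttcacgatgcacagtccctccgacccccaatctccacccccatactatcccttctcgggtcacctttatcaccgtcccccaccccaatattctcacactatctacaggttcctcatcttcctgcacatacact
The motifs, searched on both strands, were the TATA box TATAAA, the nuclear receptor half-site AGGTCA, the androgen and glucocorticoid receptor half-site AGAACA and the GC box GGGCGG. They occurred in 12.4%, 14.0%, 16.1% and 32.7% of 32851 promoter windows of this length. Igf1 held 1 AGGTCA, 161 bases before the start, Igfbp4 held 1 TATAAA at 28 bases, Igfbp6 held the reverse complement of TATAAA at 148 bases, and Igfbp5 held none of the 4 motifs. No motif was common to the 4 windows. Of the 10 promoter windows of the 9 members, AGAACA was found in 1, that of Igfbp2. A match is a run of letters and does not show that a factor binds there.

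Total counts lay between 106562 and 1421518 per library, and group medians between 256555 in ASC1 of ovariectomized females and 834004 in ASC2 of control males. Transcripts of the sex chromosomes often went against the labels. With a level of 15 CPM (the count of a gene relative to the TMM-scaled total of its library) set for Xist and for the sum of Ddx3y, Eif2s3y, Uty and Kdm5d, 30 libraries matched the sex on their label and 28 did not. Matching libraries numbered 3 of 7 and 4 of 8 in ASC1 and ASC2 of control males, 0 of 8 and 8 of 8 in castrated males, 2 of 8 and 2 of 8 in control females, and all in ovariectomized females. The 8 libraries labelled castrated male ASC1 had 51.9 to 118.5 CPM of Xist and at most 4.72 CPM of the Y-linked genes. The 8 labelled castrated male ASC2 had at most 7.99 CPM of Xist and 55.9 to 100.1 CPM of the Y-linked genes. In castrated males the sorted population and the sex-chromosome transcripts therefore cannot be told apart. Libraries are called by their labels throughout, and values without the libraries that went against them are given where they change a call. The 3 libraries of ASC1 from ovariectomized females matched their sex but stood apart in their cell markers. The summed level of 5 fibroblast or ASC markers (Pdgfra, Col1a1, Dcn, Lum and Cd34), all with reads in every group, was 44930 to 46770 CPM there and 3380 to 15880 CPM in the other groups. Both sorted populations expressed those markers, and the 3 ASC2 markers Dpp4, Cd55 and Arl4d summed to 10.2 to 150.9 CPM in ASC1 and 70.3 to 839 CPM in ASC2, so that their ranges overlapped. Controls carry the replicate letters A to H and gonadectomized mice I to P, so treatment and letter cannot be told apart. Endothelial markers summed to at most 141 CPM and adipocyte markers to at most 30.6 CPM in any library.

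Per length of exon sequence, Igfbp6 and Igfbp7 stood above the other members in ASC1 of controls. In control males Igfbp6 reached 302 ± 92.1 CPM per kb (SD, n = 7) and Igfbp7 177.5 ± 102.5 CPM per kb. On the same scale Igfbp4 was at 30.9 ± 16.3, Igf1 at 15.6 ± 9.75, Igf2r at 13.9 ± 3.49, Igfbp5 at 7.16 ± 2.92 and Igfbp3 at 6.78 ± 1.68 CPM per kb. Igf1r, the signalling receptor, was the lowest of the 8 at 3.59 ± 1.11 CPM per kb. In ASC2 of control males Igfbp6 stood at 838 ± 196 CPM per kb (n = 8), while Igfbp7, Igfbp4 and Igfbp5 lay within their spread of one another at 68.7 ± 52.4, 56.3 ± 11.6 and 49.6 ± 18.6 CPM per kb. In ASC2 Igf1r was at 3.61 ± 0.569 and Igf2r at 7.22 ± 1.17 CPM per kb. Reads per library behind these levels ran from 22 to 1841 for Igfbp6, 3 to 559 for Igf1, 2 to 85 for Igf1r and 2 to 205 for Igfbp3.

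**Figure D1:**
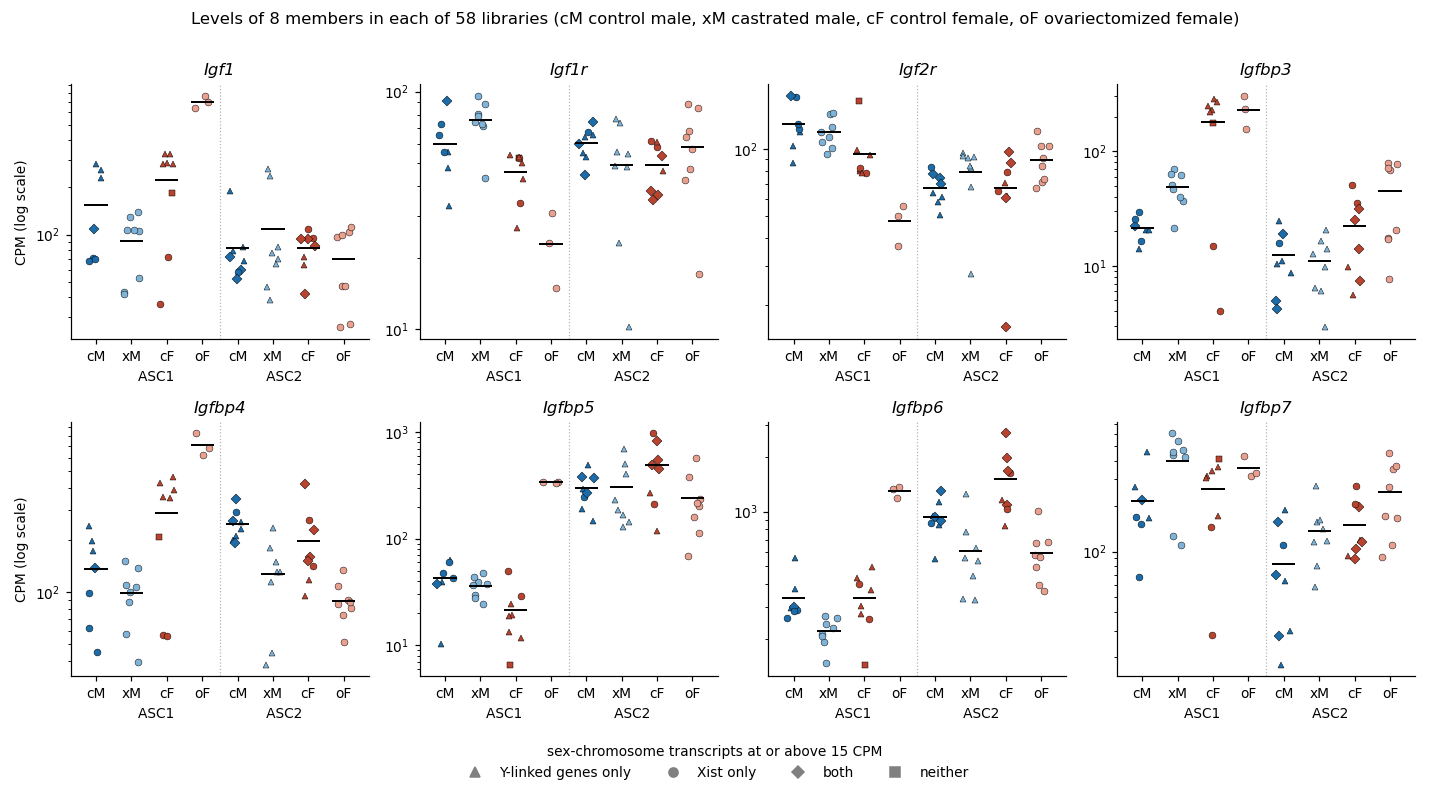
Level of each of the 8 tested members in each library, in CPM on a log axis, by population and treatment group; a point is a library, its shape the sex-chromosome transcripts at or above 15 CPM, and the bar is the group mean. Igf1 and Igfbp4 have 3 points above all others in ASC1 of ovariectomized females, Igfbp5 separates ASC1 from ASC2 in the other 3 treatment groups, and Igf1r and Igf2r are at their lowest means in ASC1 of ovariectomized females.

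The levels across the 8 groups had few steps that exceeded the spread. For Igf1 the mean was 698 ± 61.6 CPM (n = 3) in ASC1 of ovariectomized females and 224 ± 114 CPM (n = 8) in ASC1 of control females, and the following 6 groups, from 154.9 ± 96.5 CPM in ASC1 of control males to 69.8 ± 36.6 CPM in ASC2 of ovariectomized females, each lay within 1 SD of the next. Igf1r ran from 75.8 ± 15.5 CPM in ASC1 of castrated males to 45.7 ± 10.3 CPM in ASC1 of control females without such a step, and 22.9 ± 8.05 CPM in ASC1 of ovariectomized females stood below. Igf2r ran from 129.7 ± 32.5 CPM in ASC1 of control males to 47.6 ± 9.79 CPM in ASC1 of ovariectomized females, with every neighbour within 1 SD. For the binding proteins, Igfbp3 had a step between ASC1 of females (230.7 ± 74.1 CPM ovariectomized and 180.4 ± 111 CPM control) and the other 6 groups (48.8 ± 15.9 CPM and less), and Igfbp5 between 243 ± 163 CPM in ASC2 of ovariectomized females and 43.0 ± 17.6 CPM in ASC1 of control males. Igfbp4 had a step between 713 ± 105.8 CPM in ASC1 of ovariectomized females and 289 ± 161.7 CPM in ASC1 of control females. That of Igfbp6 lay between 1295 ± 99.4 CPM in ASC1 of ovariectomized females and 932 ± 217.7 CPM in ASC2 of control males. Igfbp7 had no step, from 396 ± 181.5 CPM in ASC1 of castrated males to 83.1 ± 63.4 CPM in ASC2 of control males.

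The first comparison asked how the 2 sorted populations differ. On the mean of the 4 treatment groups, Igfbp5 was 5.49-fold and Igfbp6 1.99-fold higher in ASC2, and Igfbp3 was 4.10-fold, Igf1 2.51-fold, Igfbp7 2.04-fold and Igfbp4 1.49-fold lower, whereas neither receptor passed the test. The tested members gave 6 calls of 8 at an adjusted p below 0.05 (edgeR's quasi-likelihood test with Benjamini-Hochberg adjustment over all genes), where 20.3% of all genes were called. Their median log2 fold change was -0.42, against 0.11 over all genes. Igf1r had a log2 fold change of 0.26 ± 0.14 (SE, adjusted p = 0.196) and Igf2r of -0.27 ± 0.12 (adjusted p = 0.0911). Left without the ovariectomized females, a setting added after the data were seen, the mean of 3 groups gave -0.66 ± 0.12 for Igf2r (adjusted p = 1.70e-05) and 0.22 ± 0.19 for Igfbp4 (adjusted p = 0.442), so the direction of Igfbp4 rested on ovariectomized females. In that setting Igfbp5 gave 3.43 ± 0.23, Igfbp6 1.69 ± 0.14 and Igf1 -0.70 ± 0.22, against 2.46, 0.99 and -1.33 on the mean of 4 groups.

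Igfbp5 separated the populations in 3 of the 4 treatment groups. In control males its lowest, median and highest levels were 10.2, 42.7 and 62.7 CPM in ASC1 and 145.4, 279 and 488.5 CPM in ASC2. In castrated males they were 24.3, 37.2 and 47.3 CPM against 129.5, 208.7 and 698.5 CPM, and in control females 6.56, 19.0 and 50.1 CPM against 118.5, 470 and 974.5 CPM. The ranges did not overlap in any of these groups. The log2 fold changes were 2.75 ± 0.39 in control males (adjusted p = 8.55e-07), 3.11 ± 0.39 in castrated males (adjusted p = 3.83e-08) and 4.43 ± 0.41 in control females (adjusted p = 7.39e-12). In ovariectomized females, ASC1 libraries L, N and P had 339, 330.4 and 341 CPM and ASC2 libraries had 69.1, 208.5 and 577 CPM at their lowest, median and highest, with overlapping ranges and a log2 fold change of -0.46 ± 0.46 (adjusted p = 0.447). Without the libraries that went against their label Igfbp5 still passed in control males (2.78 ± 0.67, adjusted p = 0.00759) and in control females (3.92 ± 0.89, adjusted p = 0.018).

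Igfbp6 went the same way in the same 3 groups. Its ASC1 and ASC2 ranges were 144 to 495 CPM and 828 to 2689 CPM in control females and 147.7 to 268 CPM and 327 to 1246 CPM in castrated males, without overlap. In control males they were 259 to 553 CPM and 549 to 1300 CPM, where 1 library of each population met. The log2 fold changes were 2.16 ± 0.24, 1.46 ± 0.23 and 1.47 ± 0.24 (adjusted p = 8.85e-10, 1.45e-05 and 1.59e-05). In the control male libraries that matched their label Igfbp6 gave 1.08 ± 0.38 and did not pass (adjusted p = 0.0683). In ovariectomized females the order was the opposite, with 1371, 1331 and 1183 CPM in ASC1 libraries L, N and P and 368 to 1013 CPM in ASC2, and a log2 fold change of -1.11 ± 0.29 (adjusted p = 0.00216). The 3 ASC2 markers summed to 61.9 to 150.9 CPM in those 3 ASC1 libraries and to 16.0 to 84.1 CPM in ASC1 of control females. Of these, Cd55 (mean 86.9 against 26.8 CPM) and Arl4d (9.93 against 1.51 CPM) were higher, while the sort marker Dpp4 was not (18.5 against 27.7 CPM). The ASC1a markers Col15a1, G0s2 and Cxcl14 also summed higher, at 630 to 1111 against 219 to 561 CPM, though G0s2 hardly differed (mean 106 against 104 CPM). In ASC2 of ovariectomized and control females the ASC2 markers summed to 103 to 206 CPM and 162 to 839 CPM. Across the 58 libraries Igfbp5 and Igfbp6 followed these markers (Pearson r of 0.76 and 0.77, Spearman rho of 0.80 for both), libraries that share their sort and plate, and the markers' part in the differences was not tested.

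Igfbp3, the main IGF carrier of serum, was lower in ASC2 in castrated males, control females and ovariectomized females. In castrated males it had 21.5, 48.7 and 69.4 CPM in ASC1 and 2.90, 11.2 and 20.5 CPM in ASC2 at the lowest, median and highest, without overlap. All 8 of these ASC1 libraries had Xist alone and all 8 of ASC2 Y-linked transcripts alone, so population and sex-chromosome transcripts cannot be told apart. The log2 fold changes were -2.14 ± 0.49 in castrated males, -2.96 ± 0.44 in control females and -2.23 ± 0.52 in ovariectomized females (adjusted p = 0.00192, 1.61e-06 and 0.000529). In control males it was -0.81 ± 0.52 (adjusted p = 0.321), with 13.9 to 29.5 CPM in ASC1 and 4.24 to 24.5 CPM in ASC2. The value of control females turned to 2.01 ± 0.75 (adjusted p = 0.187) without the libraries against their label, which left 2 per population, those with 14.99 and 4.01 CPM in ASC1 and 51.1 and 35.3 CPM in ASC2.

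Igf1 was lower in ASC2 of control females, by a log2 fold change of -1.46 ± 0.37 (adjusted p = 0.00747), and of ovariectomized females, by -3.22 ± 0.46 (adjusted p = 1.04e-07). The control females had 36.4, 281.5 and 328 CPM in ASC1 and 42.0, 89.3 and 108.6 CPM in ASC2, and the 3 ASC1 libraries of ovariectomized females had 639, 762 and 693.5 CPM against 25.7 to 112 CPM in ASC2. Ranges overlapped in control females and not in ovariectomized females. In control males and castrated males Igf1 gave -0.93 ± 0.38 and 0.28 ± 0.37 (adjusted p = 0.1002 and 0.717). The control female value was 0.92 ± 0.68 (adjusted p = 0.577) in the 4 libraries that matched their label.

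The remaining members differed by treatment group. Igfbp7 passed in control males (-1.34 ± 0.41, adjusted p = 0.0215) and castrated males (-1.52 ± 0.39, adjusted p = 0.00736) but gave -0.77 ± 0.39 and -0.50 ± 0.52 in control and ovariectomized females (adjusted p = 0.283 and 0.468). Igfbp4 passed in ovariectomized females alone among the 4 (-2.97 ± 0.42, adjusted p = 9.38e-08), with 625 to 831 CPM in ASC1 and 51.4 to 133.9 CPM in ASC2. Of the receptors, Igf2r was lower in ASC2 of control males, where 86.9 to 173 CPM in ASC1 and 50.6 to 83.4 CPM in ASC2 did not overlap (-0.94 ± 0.20, adjusted p = 0.000973), and higher in ASC2 of ovariectomized females (0.90 ± 0.32, adjusted p = 0.0235). The first value was -0.82 ± 0.29 (adjusted p = 0.066) in the libraries that matched their label. The second was 1.00 ± 0.41 (adjusted p = 0.0739) without ASC1 library L, 0.74 ± 0.36 (adjusted p = 0.1055) without N and 0.91 ± 0.34 (adjusted p = 0.0655) without the count filter. Igf1r passed in ovariectomized females only among the 4 groups, higher in ASC2 (1.57 ± 0.41, adjusted p = 0.00187), and gave 1.23 ± 0.50 (adjusted p = 0.074) without library L. Calls numbered 4 of 8 in control males, where 12.2% of all genes were called, 4 of 8 in castrated males (9.09%), 4 of 8 in control females (6.11%) and 6 of 8 in ovariectomized females (35.4%). In the libraries that matched their label the numbers were 2 in control males, 2 in control females and 6 in ovariectomized females, and castrated males had no ASC1 library left. Calls over all genes fell too, from 1519 to 1030, from 762 to 161 and from 4418 to 4071 in the same order, and control females had 2 libraries per population left.

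**Figure D2:**
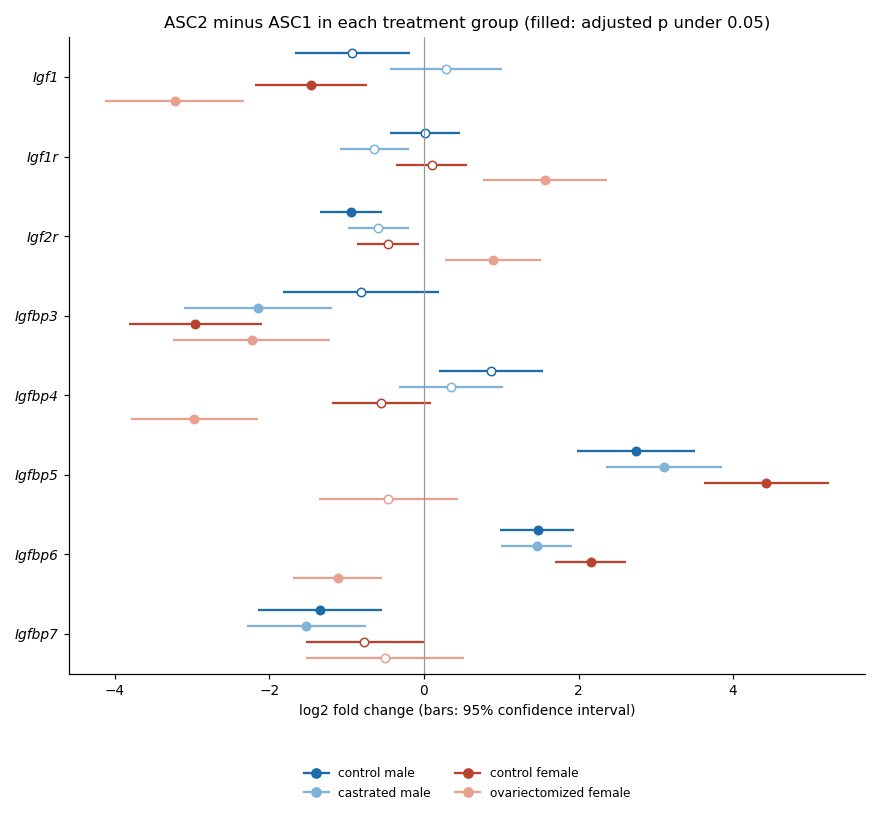
Log2 fold change of ASC2 against ASC1 for each tested member in the 4 treatment groups, with lines for the 95% confidence interval; filled circles passed an adjusted p of 0.05. Igfbp5 and Igfbp6 lie right of 0 in 3 treatment groups, at 1.46 to 4.43, and at -0.46 and -1.11 in ovariectomized females.

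The next comparison was ovariectomized against control females. In ASC1, Igfbp5 was 14.97-fold, Igfbp6 3.83-fold, Igf1 3.10-fold and Igfbp4 2.46-fold higher after ovariectomy, while Igf1r was 2.25-fold and Igf2r 1.92-fold lower. These made 6 calls of 8 where 34.8% of all genes were called, and the median log2 fold change was 0.88 over the members and -0.34 over all genes, so the values are to be read against a table that lay below 0 as a whole. The 3 ASC1 libraries of ovariectomized females had total counts of 188591 to 1114321, 9122 to 11634 genes detected and TMM factors of 0.789 to 0.86.

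Igf1 in those 3 libraries, at 639 to 762 CPM, lay above the 36.4 to 328 CPM of the 8 control libraries without overlap (log2 fold change 1.63 ± 0.45, adjusted p = 0.00378). Igfbp4, which PAPP-A is known to cleave, had 683, 831 and 625 CPM in libraries L, N and P against 56.1, 353 and 463 CPM at the lowest, median and highest in controls (1.3 ± 0.42, adjusted p = 0.0128). Igfbp5, a binding protein with affinity for extracellular matrix, had 330.4 to 341 CPM against 6.56 to 50.1 CPM (3.90 ± 0.48, adjusted p = 2.08e-09). Igfbp6 had 1183 to 1371 CPM against 144 to 495 CPM (1.94 ± 0.29, adjusted p = 3.29e-07), and none of these 4 members had overlapping ranges. How many of all genes were likewise without overlap between these libraries was not counted. The receptors went down: Igf2r had 50.3, 36.7 and 55.7 CPM against 77.9 to 164 CPM (-0.94 ± 0.32, adjusted p = 0.0172), and Igf1r 14.9, 22.95 and 31.0 CPM against 26.6 to 54.3 CPM with overlap (-1.17 ± 0.41, adjusted p = 0.0221). Igfbp3 and Igfbp7 gave 0.37 ± 0.53 and 0.47 ± 0.52 (adjusted p = 0.616 and 0.5).

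Without libraries against their label, 2 ASC1 libraries of control females remained. The number of calls was again 6, while calls over all genes went from 4336 to 3186. Yet Igf1r (-1.09 ± 0.58, adjusted p = 0.157) and Igf2r (-0.74 ± 0.37, adjusted p = 0.135) no longer passed, and Igfbp3 (4.45 ± 0.74, adjusted p = 3.36e-05) and Igfbp7 (1.99 ± 0.72, adjusted p = 0.0387) did. Igf1, Igfbp4, Igfbp5 and Igfbp6 passed in both settings, Igf1 with 3.72 ± 0.70 and Igfbp4 with 3.66 ± 0.53 in the smaller one. Leaving out library L left 3 calls, while calls over all genes went from 4336 to 2328. The adjusted p was then 0.265 for Igf1r, 0.0665 for Igf2r and 0.0529 for Igfbp4. Leaving out N lost Igf2r and Igfbp4 (adjusted p = 0.0906 and 0.0515). Without the count filter Igf1r and Igf2r had an adjusted p of 0.0545 and 0.0534. Cell markers moved with these differences. The summed level of 4 smooth muscle markers (Acta2, Tagln, Myh11 and Mylk), all 4 with reads, was 43.4 to 158.9 CPM in ASC1 of ovariectomized females and 1144 to 2618 CPM in control females, and that of the macrophage markers Cd68, Cd14, Cd163 and Ptprc, all 4 with reads, was 24.8 to 27.5 CPM against 46.1 to 307 CPM. Of these, Cd68 had 0 to 2.29 CPM against 32.1 to 272 CPM, while Cd14 had a mean of 19.9 ± 7.01 against 17.3 ± 13.3 CPM. Pericyte markers, 3 of 4 with reads and Higd1b at 0, summed to 142 to 225 CPM against 0 to 32.7 CPM, a difference that lay in Kcnj8 (mean 89.2 against 11.4 CPM) and Abcc9 (83.2 against 3.94 CPM) and not in Rgs5 (4.51 against 4.52 CPM). The 3 epithelial markers Epcam, Krt18 and Fgfr4 were at 0 against 26.2 to 274 CPM, a sum made up mostly of Krt18 (mean 81.2 CPM in control females). Their part in the differences was not tested, and in bulk samples fewer cells of a type and less RNA per cell cannot be told apart.

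In ASC2 the same comparison gave 1 call of 8, where 2.09% of all genes were called. Igfbp6 fell from 828, 1399 and 2689 CPM at the lowest, median and highest in control females to 368, 570.4 and 1013 CPM, with overlapping ranges (log2 fold change -1.33 ± 0.23, adjusted p = 0.000265). Igfbp4 and Igfbp5 gave -1.12 ± 0.34 and -0.99 ± 0.34 (adjusted p = 0.0665 and 0.121), and Igf1 gave -0.13 ± 0.38 (adjusted p = 0.949). Igf1 ranged from 42.0 to 108.6 CPM in ASC2 of control females and from 25.7 to 112 CPM in ovariectomized females. With the 2 control libraries that matched their label Igfbp6 gave -1.13 ± 0.35 and did not pass (adjusted p = 0.547), and calls over all genes fell from 261 to 3. Smooth muscle markers summed to 1309 to 3637 CPM in ASC2 of ovariectomized and 155 to 2500 CPM of control females, and the ASC2 markers were lower as given above, and their part in the Igfbp6 difference was not tested. The difference between both ovariectomy contrasts, ASC2 minus ASC1, was tested after the data were seen and passed for 6 of 8 members where 34.8% of all genes passed: Igfbp5 (-4.89 ± 0.59), Igfbp6 (-3.27 ± 0.37), Igfbp4 (-2.42 ± 0.54), Igf1 (-1.77 ± 0.60), Igf1r (1.47 ± 0.47) and Igf2r (1.35 ± 0.38). In the libraries that matched their label 5 passed, while calls over all genes went from 4334 to 2838. Igf1r and Igf2r were lost (adjusted p = 0.258 and 0.0992), and Igf1r was also lost without library L (1.10 ± 0.56, adjusted p = 0.152). Igfbp3 without libraries against their label gave -4.26 ± 0.87 (adjusted p = 0.00047).

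Igfbp2 was nearly absent outside one group. It had 13 reads in ASC2 of ovariectomized females, in 7 of 8 libraries, with levels of 3.14, 1.92, 0.927, 0, 1.15, 11.5, 4.95 and 8.57 CPM in libraries I to P. A single read each was found in ASC1 of control and of ovariectomized females, and none in the other 5 groups. A count of 0 over the 8 ASC2 libraries of control females allows a level of up to 0.528 CPM, by counting error only. Krt18, an epithelial keratin, stood at 151 ± 167.5 CPM (n = 8) in the same libraries and 10.04 ± 7.22 CPM in ASC2 of control females. In ASC2 of ovariectomized females Epcam had a mean of 4.28 CPM and Fgfr4 of 0.131 CPM, so Krt18 made up most of the epithelial sum. The epithelial marker sum was 4.94 to 13.6 CPM in libraries I to L, which held 6 of the 13 Igfbp2 reads, and 162.5 to 443 CPM in libraries M to P, and its part in the Igfbp2 reads was not tested.

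Castration was compared next. In ASC1 0 of 8 members passed, where 2.36% of all genes were called, and in ASC2 0 of 8, where 6.96% were called (edgeR). At an unadjusted p below 0.05, 4 members in ASC1 and 2 in ASC2 qualified, and the share of all genes at that level was not counted. DESeq2 called 0 members in ASC1, where it called 335 of all genes, and 1, Igfbp4, in ASC2, where it called 1054. In ASC1 Igfbp3 had 13.9, 20.4 and 29.5 CPM in control and 21.5, 48.7 and 69.4 CPM in castrated males (log2 fold change 1.24 ± 0.47, adjusted p = 0.178), with overlap. Igf1 had 67.7, 108.8 and 281 CPM in control and 42.1, 106.7 and 139.8 CPM in castrated males (-0.77 ± 0.38, adjusted p = 0.378). Igfbp6 gave -0.61 ± 0.24 and Igfbp7 0.89 ± 0.40 (adjusted p = 0.200 and 0.305). The 95% confidence interval was -1.52 to -0.02 for Igf1 and 0.32 to 2.16 for Igfbp3, so these libraries bound the differences only loosely. When the model was fitted to the groups compared alone, Igfbp3 (1.25 ± 0.24, adjusted p = 0.00379) and Igfbp6 (-0.60 ± 0.16, adjusted p = 0.0285) passed. No castrated ASC1 library matched its label, so no value without such libraries can be given. Smooth muscle markers summed to 808 to 1324 CPM in control and 695 to 2510 CPM in castrated males there. Acta2 (mean 713 against 1073 CPM), Tagln (347 against 881 CPM) and Mylk (37.6 against 45.4 CPM) had higher means in castrated males. Myh11 had a lower mean (3.82 against 2.76 CPM). The 4 macrophage markers summed to 53.3 to 530.4 CPM in control and 62.8 to 109.9 CPM in castrated males. The part of both lists was not tested.

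In ASC2 Igfbp4 had 193, 243.5 and 345 CPM in control and 38.2, 131.1 and 236 CPM in castrated males. The ranges overlapped, and the log2 fold change was -0.97 ± 0.33 (adjusted p = 0.061). Igfbp6 followed with -0.62 ± 0.23 (adjusted p = 0.0824), and the receptors gave -0.32 ± 0.23 for Igf1r and 0.24 ± 0.20 for Igf2r (adjusted p = 0.432 and 0.527). Without the 4 control libraries against their label 0 members passed, while calls over all genes went from 868 to 782, and Igfbp4 gave -0.81 ± 0.29 (adjusted p = 0.092). The 4 macrophage markers summed to 73.95 to 197 CPM in control and 133 to 642 CPM in castrated males, and their part was not tested. The castration effect of ASC2 did not pass as different from that of ASC1 for any member, 0 of 8 where 2.41% of genes passed. DESeq2 called 0 members and 402 of all genes. By edgeR 2 members had an unadjusted p below 0.05, and the share of all genes at that level was not counted. Igf1 came with 1.21 ± 0.53 (adjusted p = 0.250).

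**Figure D3:**
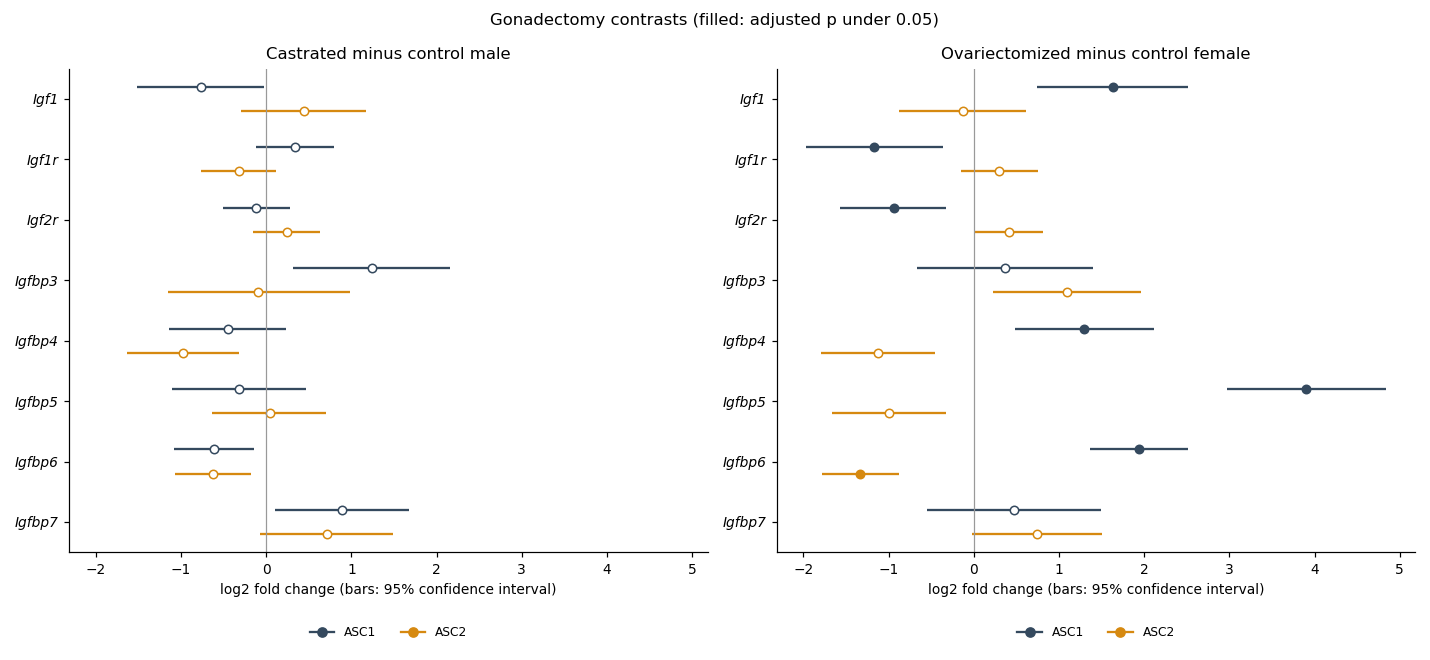
Log2 fold change of castrated against control males (left) and ovariectomized against control females (right) for each tested member in ASC1 and ASC2, with lines for the 95% confidence interval; filled circles passed an adjusted p of 0.05. All circles are open on the left, and on the right 6 are filled in ASC1, from -1.17 to 3.90, and 1 in ASC2, Igfbp6 at -1.33.

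Control males and control females were compared in each population. In ASC1 1 of 8 members passed, where 0.289% of all genes were called. Igfbp3 was 8.57-fold lower in libraries labelled male, at 13.9, 20.4 and 29.5 CPM, than in those labelled female, at 4.01, 222 and 285 CPM (log2 fold change -3.10 ± 0.47, adjusted p = 2.87e-05). The female range was wide because it held 6 libraries between 177 and 285 CPM and 2 at 4.01 and 14.99 CPM, and the latter were the 2 that matched their label. With matching libraries only, 3 against 2, Igfbp3 gave 0.78 ± 0.74 (adjusted p = 0.703) and 0 members passed, while calls over all genes rose from 36 to 146. In ASC2 0 of 8 passed, where 6.50% of all genes were called. An unadjusted p below 0.05 was reached by 3 members, and the share of all genes at that level was not counted. DESeq2 called 1 member, Igfbp6, and 981 of all genes. Igfbp6 had 549 to 1300 CPM in control males and 828 to 2689 CPM in control females (-0.69 ± 0.23, adjusted p = 0.0504).

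Igf1 and Igfbp4 in ASC1 of controls sorted by the sex-chromosome transcripts of the library and less by its label. Among libraries labelled control male, Igf1 had 257, 229 and 281 CPM in the 3 with Y-linked transcripts alone (B, C and D) and 70.6, 67.7 and 69.7 CPM in the 3 with Xist alone (E, F and H), with 108.8 CPM in G, which held both. These sets coincide with the letter ranges A to D and E to H, from which they cannot be told apart. Among those labelled control female it had 281 to 328 CPM in the 5 with Y-linked transcripts alone and 36.4 and 72.1 CPM in the 2 with Xist alone, with 183.7 CPM in A, which held neither. Near the level of 15 CPM lay F and G under the male label, at 12.2 and 15.6 CPM of the Y-linked genes, and A under the female label, at 13.1 CPM of Xist. Igfbp4 had 172 to 242 CPM against 45.2 to 99.4 CPM under the male label and 352 to 463 CPM against 56.1 and 56.7 CPM under the female label. The 2 sets did not overlap for either gene under either label. Igfbp3 did not follow this under the male label, with 13.9 to 20.4 CPM against 16.6 to 29.5 CPM, but did under the female label, with 218 to 285 CPM against 4.01 and 14.99 CPM. These sets were formed after the transcripts had been seen and are given as values without a test. How many of all genes did not overlap between them was not counted. Of the remaining members, Igf1r, Igf2r and Igfbp6 were without overlap under the male label only, and Igfbp5 and Igfbp7 under the female label only. Cell markers moved with the sets. The ASC1a markers Col15a1, G0s2 and Cxcl14 summed to 494 to 570.2 CPM against 256 to 356 CPM and 430 to 561 CPM against 219 to 282.5 CPM, and epithelial markers ran the other way, at 0.995 to 6.26 CPM against 31.3 to 49.7 CPM and 28.0 to 93.5 CPM against 96.2 to 274 CPM. Krt18 made up most of the epithelial sum, with means of 30.0 and 81.2 CPM under the male and female labels, where Epcam had 1.67 and 3.04 CPM. The 4 macrophage markers summed to 398 to 530.4 CPM in the libraries with Y-linked transcripts and 61.2 to 86.8 CPM in those with Xist under the male label, and to 215 to 307 CPM against 46.1 to 68.5 CPM under the female label. The ASC2 markers were at 33.1 to 37.8 CPM against 12.2 to 14.2 CPM and 53.2 to 84.1 CPM against 16.0 to 19.3 CPM, and adipocyte markers at 10.96 to 30.6 CPM against 1.74 to 4.27 CPM and 3.12 to 10.9 CPM against 0 to 2.00 CPM. The part of these lists was not tested. In ASC2 of control females, with 2 libraries in each set, the order was the opposite for both genes. Igf1 had 64.3 and 72.2 CPM with Y-linked transcripts alone and 95.4 and 108.6 CPM with Xist alone. Igfbp4 had 95.1 and 118.5 CPM against 142.5 and 262.6 CPM. In ASC2 of control males 1 library had Xist alone, with Igf1 below the range of those with Y-linked transcripts alone and Igfbp4 above it.

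**Figure D4:**
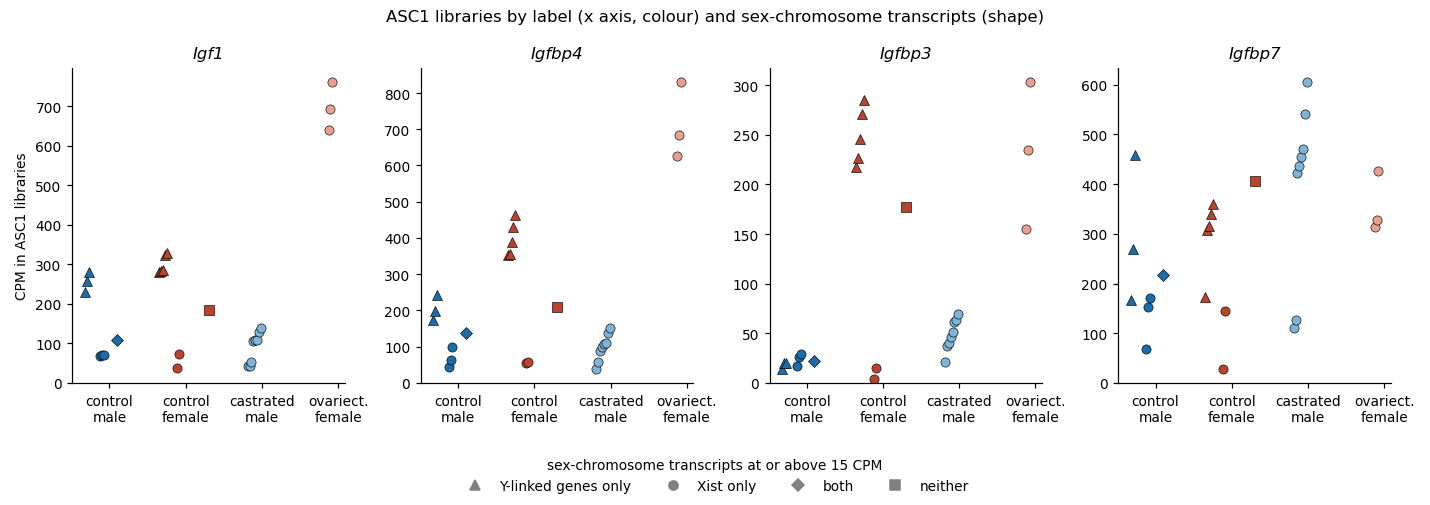
Levels of Igf1, Igfbp4, Igfbp3 and Igfbp7 (CPM, linear axis from 0) in the ASC1 libraries of each label, with the point's shape giving the sex-chromosome transcripts at or above 15 CPM. Under both control labels the triangles (Y-linked genes only) of Igf1 and Igfbp4 lie above the circles (Xist only), 229 to 328 CPM against 36.4 to 72.1 CPM for Igf1, while the 3 ovariectomized libraries, with Xist only, lie at 639 to 762 CPM.

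Castrated males and ovariectomized females, mice of both sexes without gonads, were compared in ASC2, where all 16 libraries matched their label. Igfbp3 was the 1 member of 8 that passed, where 3.94% of all genes were called. It had 2.90, 11.2 and 20.5 CPM in castrated males and 7.69, 44.9 and 78.7 CPM in ovariectomized females (log2 fold change -2.14 ± 0.49, adjusted p = 0.00483). The ovariectomized libraries I to L had 69.2 to 78.7 CPM and M to P 7.69 to 20.6 CPM, so the ranges overlapped for M to P and not for I to L. Smooth muscle markers summed to 197 to 1361 CPM in castrated males and 1309 to 3637 CPM in ovariectomized females and the 4 macrophage markers to 133 to 642 CPM and 52.0 to 125 CPM, and their part in the difference was not tested. Igf1, Igf1r and Igf2r gave 0.57 ± 0.38, -0.32 ± 0.23 and -0.16 ± 0.20 (adjusted p = 0.512, 0.561 and 0.785).

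The wider pathway was read from 5 fixed lists. Igf2, the second ligand, was low, at 0.289 ± 0.535 to 4.89 ± 3.92 CPM in 7 groups and 16.7 ± 13.7 CPM in ASC1 of ovariectomized females, where it rose (3.29 ± 0.94, adjusted p = 0.00489). Insr, the insulin receptor, lay between 10.3 ± 4.83 and 19.2 ± 7.97 CPM and passed in none of the 14 contrasts. Pappa, which encodes the protease PAPP-A, failed the count filter, with at most 3.68 ± 3.73 CPM. Ghr, the growth hormone receptor, was higher in ASC1 libraries labelled castrated male than in those labelled control male. It had 106 ± 48.8 CPM (n = 8) against 36.8 ± 18.2 CPM (n = 7, log2 fold change 1.53 ± 0.40, adjusted p = 0.0196), while Igf1 in the same libraries did not pass. Of these libraries 0 of 8 and 3 of 7 matched their label, so no value without the others can be given. Ghr was lower in ASC2 than in ASC1 of castrated males (-1.81 ± 0.39, adjusted p = 0.00094), where the populations also differed in their sex-chromosome transcripts. It was lower in ASC2 of castrated males than of ovariectomized females (-1.45 ± 0.39, adjusted p = 0.0187).

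In ASC1 after ovariectomy, 1 of 4 tested IGFBP proteases and inhibitors rose and 2 fell: the protease gene Htra1 (2.74 ± 0.35, adjusted p = 8.53e-09) against Stc2, an inhibitor of PAPP-A (-2.16 ± 0.63, adjusted p = 0.00528), and Adam12 (-1.12 ± 0.43, adjusted p = 0.035). Of 6 low-affinity IGFBP-related genes 3 fell, Ccn4 (-3.23 ± 0.47) and Ccn2 (-2.35 ± 0.58) among them, and Esm1 had no read in the 3 libraries and 0 to 56.1 CPM in controls. In the growth hormone axis 1 of 7 rose, the prolactin receptor gene Prlr (4.08 ± 0.87), and 1 fell, the kinase gene Jak2 (-3.17 ± 0.53). Among 24 receptor signalling genes 6 rose and 4 fell, where 34.8% of all genes were called, led by the adaptor Irs1 (2.65 ± 0.35), Mtor (-2.19 ± 0.55), Tsc1 (-2.17 ± 0.48) and the transcription factor gene Foxo1 (1.56 ± 0.58), and the list's median was -0.08 against -0.34 over all genes. In ASC2 after ovariectomy, where 2.09% of all genes were called, 0 of 24 signalling genes passed. There Ccn2 (1.57 ± 0.33) and Ccn4 (1.05 ± 0.25) rose while Ccn5 fell (-1.59 ± 0.38).

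Genes of the lists were also called in the castration contrasts. In ASC1, where 2.36% of all genes were called, Ccn5 fell (-1.83 ± 0.39, adjusted p = 0.00291) and Ccn1 rose (0.87 ± 0.24, adjusted p = 0.0331), beside Ghr. The limit given for Ghr, that no castrated library there matched its label, holds for these genes too. In the same contrast 0 of 24 signalling genes passed. In ASC2, where 6.96% of all genes were called, 3 of 24 fell, Gsk3b (-2.24 ± 0.45) and the receptor adaptor Grb10 (-1.15 ± 0.21) among them, and Ccn2 rose (1.10 ± 0.34). Gsk3b in ASC2 of control males was uneven, from 45.1 to 1548 CPM. Between control males and females 0 list genes passed in ASC1, where 0.289% of all genes were called. In ASC2, where 6.50% were called, Gsk3b (2.32 ± 0.45) was higher and Ccn3 (-1.53 ± 0.35) and Htra1 (-1.24 ± 0.28) lower in males. On the mean difference of the populations, where 20.3% of all genes were called, Prlr (-1.61 ± 0.50), Htra1 (-0.45 ± 0.15) and 4 signalling genes, among them Rheb (-0.47 ± 0.15), Shc1 (-0.24 ± 0.07) and Akt2 (-0.24 ± 0.09), were lower in ASC2, and Esm1 (2.34 ± 0.61) and Ccn1 (0.44 ± 0.13) higher.

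The genes whose log2(CPM + 1) followed each member most closely over the 58 libraries, among 8744 genes with a mean of at least 10 CPM, are given as a description, since the libraries share groups, sorts and plate. For Igf1 they were Dhrs3, Gstm2 and Tent5a (Pearson r of 0.84, 0.83 and 0.81), for Igf1r Sipa1l1, Peak1 and Il16 (0.73, 0.73 and 0.71) and for Igf2r Arfgap1, Tbc1d2b and Adam12 (0.78, 0.76 and 0.74). For Igfbp3 they were Il6st, Cpxm1 and Cxcl12 (0.89, 0.87 and 0.82), for Igfbp4 the complement genes C1ra and Serping1 with Selenop (0.86, 0.85 and 0.85) and for Igfbp7 Cst3 and Lamp1 (0.89 and 0.85). Igfbp5 was closest to Pi16, Smpd3 and Sema3c (0.91, 0.90 and 0.89) and Igfbp6 to Ackr3, Scara5 and Fos (0.91, 0.91 and 0.90). Among the members themselves, Igfbp5 and Igfbp6 had r = 0.83 over all libraries, 0.73 within the 26 ASC1 and 0.69 within the 32 ASC2 libraries. Igf1 and Igfbp4 had r = 0.70 over all, 0.95 within ASC1 and 0.30 within ASC2. Igf2r and Igfbp6 ran against each other, with r = -0.76 over all, -0.81 within ASC1 and -0.62 within ASC2.

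**Figure D5:**
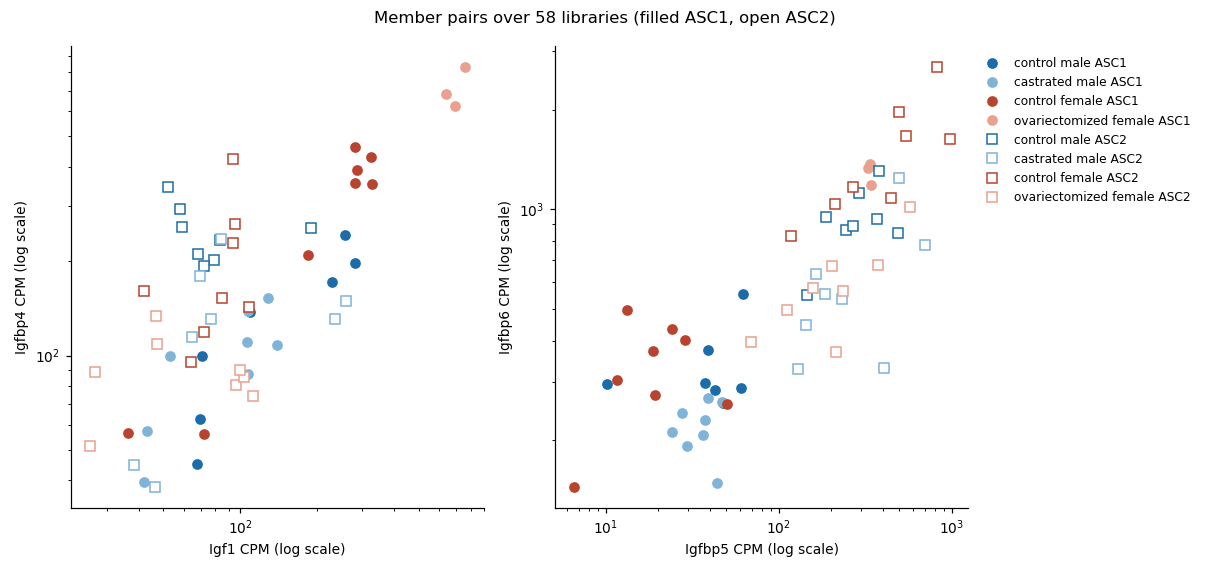
CPM of Igfbp4 against Igf1 (left) and of Igfbp6 against Igfbp5 (right) in 58 libraries on log axes, filled circles for ASC1 and open squares for ASC2, coloured by treatment group. ASC1 libraries lie along one line on the left (r = 0.95 within ASC1, on the log2 scale), and on the right the 3 ASC1 libraries of ovariectomized females lie among the ASC2 libraries.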

How the data were processed

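Sorted ASC1 and ASC2 gave 58 Smart-seq3 libraries, in which reads with and without a molecular identifier were added. Per the labels and the methods, the authors quantified reads with Salmon 1.9.0 on GRCm39 transcripts, used STAR 2.7.10a for quality control and removed libraries with few detected genes. The deposited values are the estimated counts of each gene, not normalized. Of the values above 0, 15.0% were not whole, and counts were rounded. The table's libraries held 106562 to 1421518 counts, and CPM and fold changes carry that counting error.

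The unit of testing was the library, grouped by its label into 8 groups. The methods give 8 mice in each group, and the labels tie a library to a mouse by a letter at most, so p-values measure the spread between these libraries, part of which may be technical. edgeR 4.0.16 in R 4.3.3 (TMM, quasi-likelihood test, 1 coefficient for each group) was run on the 12464 genes that reached 5 reads in more than 3 libraries, with Benjamini-Hochberg adjustment over all of them and a threshold of 0.05. Standard errors are the absolute log2 fold change over the square root of the F statistic. The common biological coefficient of variation was 35.6%. Libraries of one group differed by a chi-square of at least 1.52 per gene, so none was taken as a copy. On simulated data with 12464 genes, the castration contrast in ASC2 recovered 60 of 100 genes changed 2-fold and 100 of 100 changed 4-fold with 7 false calls, and the ovariectomy contrast in ASC1 15 and 85 with 3. The simulation gave all other genes the same mean in every group and raised the chosen genes only. In the real ovariectomy contrast in ASC1 34.8% of all genes were called, so these false calls do not measure the error under such a shift.

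Alternatives were RLE size factors, no count filter (at least 1 read in any library), filterByExpr, DESeq2 1.42.0, a fit to the groups compared only, limma 3.58.1 voom and edgeR with the presumed mouse (same sex and letter) as a block, libraries against their sex label left out, and each ovariectomized ASC1 library left out. The block by letter, the mean without ovariectomized females and the difference of the ovariectomy contrasts were added after the data were seen. Named were all 9 members, up to 4 genes of each list with the largest change among those past the threshold, Igf2, Insr, Pappa and Ghr, and the 3 genes most like each member. A few genes that these rules name, and sums that hold them, are not reported here. Members, lists and markers were chosen with earlier results of these data known. Exon lengths and symbols came from an older Gencode release on GRCm38, and exon length stands in for transcript length.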

Additional observations from a re-analysis of the deposited data

Results flagged for a closer look

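Of 56 sets of 7 or 8 libraries, 1 member and group each, 8 had a library whose gap to the nearest other exceeded Dixon's 95% value on the log2(CPM + 1) scale, where chance gives about 1 in 20. For Igf1 it was control male ASC2 D, at 189.6 CPM where the others had 52.2 to 83.5 CPM. For Igf1r it was castrated male ASC1 O, at 43.3 CPM (others 71.8 to 95.8 CPM), and ovariectomized female ASC2 P, at 17.1 CPM (others 42.4 to 88.5 CPM), the library with the lowest total count. For Igf2r it was control female ASC1 A, at 164 CPM (others 77.9 to 99.4 CPM), castrated male ASC2 K, at 27.6 CPM (others 67.9 to 95.8 CPM), and control female ASC2 E, at 15.8 CPM (others 60.2 to 97.2 CPM). Igfbp5 stood apart in control male ASC1 B, at 10.2 CPM (others 37.8 to 62.7 CPM), and Igfbp7 in control female ASC1 F, at 28.1 CPM (others 144.5 to 407 CPM).

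The ovariectomy contrast differed between ASC2 and ASC1 for 6 members by a test of the difference in edgeR. The log2 values, ASC2 minus ASC1, were -4.89 for Igfbp5 (adjusted p = 1.50e-09), -3.27 for Igfbp6 (adjusted p = 2.38e-10), -2.42 for Igfbp4 (adjusted p = 0.00035), -1.77 for Igf1 (adjusted p = 0.0176), 1.47 for Igf1r (adjusted p = 0.012) and 1.35 for Igf2r (adjusted p = 0.00403). The difference rests on 3 libraries of ASC1, which stood apart in their cell markers.

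Igfbp2, which was outside the test across genes, had 13 reads in ASC2 of ovariectomized females and none in ASC2 of the other 3 treatment groups.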

How the results depend on the processing

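Of 114 recomputed numbers of members called, 95 stayed within 1.5 times the reported one, and of 912 recomputed log2 fold changes 852 kept their side of the threshold. Of the latter, 26 were lost, 29 gained and 5 turned where at least one value was called, and a further 22 changed sign with neither value called.

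Without libraries against their sex label, the members called were 2 in place of 4 for ASC2 minus ASC1 in control males and in control females, 0 in place of 1 for ovariectomy in ASC2, and 0 in place of 1 for control males against females in ASC1. The same setting turned Igf1 to 0.92 and Igfbp3 to 2.01 in ASC2 minus ASC1 of control females, Igfbp3 to 0.78 in control males against females in ASC1, and Igfbp3 to -4.26 in the difference of the ovariectomy contrasts. The mean without ovariectomized females turned Igfbp4 to 0.22. Fits to the groups compared gave 2 in place of 0 for castration in ASC1 and 2 in place of 1 for ovariectomy in ASC2. Without the count filter, the members called were 1 for castration in ASC2, 3 for ovariectomy in ASC2, 2 for control males against females in ASC1 and 1 in ASC2. DESeq2 gave 1 for castration in ASC2, 2 for ovariectomy in ASC2 and 1 for control males against females in ASC2, where RLE and filterByExpr also gave 1. Leaving out one ovariectomized ASC1 library gave 3 to 6 members called for ovariectomy in ASC1, 4 to 6 for ASC2 minus ASC1 in those mice, 6 on the mean and 5 to 6 for the difference of the ovariectomy contrasts.

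Deviations of the ASC1 and ASC2 libraries of a presumed mouse correlated at -0.17 to 0.27, not over 0.1 in every pair, and 5 of 7, 0 of 8, 3 of 8 and 0 of 3 ASC1 libraries of control males, castrated males, control females and ovariectomized females were closest to their own. With the replicate block in limma voom (correlation 0.05) the members called were 2 for castration in ASC2, 0 for control males against females in ASC1 and 0 for castrated males against ovariectomized females (Igfbp3 -2.11, adjusted p = 0.118), and with the block in edgeR 5 on the mean of ASC2 minus ASC1. With the letter as a replicate block, fitted to the groups compared alone, Igfbp3 gave -2.68 (adjusted p = 0.0247) in control males against females in ASC1 and -1.98 (adjusted p = 0.0209) in castrated males against ovariectomized females. Castrated ASC1 had no library that matched its label, so the mean of ASC2 minus ASC1, castrated males and castration in ASC1 gave no value under that setting.

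Counts over all genes also moved by more than 1.5 times. Without libraries against their label they went from 762 to 161 for ASC2 minus ASC1 in control females, 261 to 3 for ovariectomy in ASC2, 36 to 146 and 810 to 356 for control males against females in ASC1 and ASC2, and 4334 to 2838 for the difference of the ovariectomy contrasts. Without library L they went from 4418 to 2521, 4336 to 2328 and 4334 to 2715 in the ovariectomy results. In fits to the groups compared they went from 294 to 580 and 868 to 297 for castration in ASC1 and ASC2 and from 810 to 366, the letter block took such fits from 44 to 89, 366 to 277 and 391 to 291, and without the count filter from 301 to 454 and 36 to 81. Igfbp4 for castration in ASC2 and Igfbp6 for control males against females in ASC2 were the members DESeq2 called. The causes were not tested. At these depths the tests of Igfbp3 and Igf1r rest on as few as 2 reads in a library and that of Igfbp5 on 1.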

Other observations

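Within a group, members differed between ranges of replicate letters. In ASC2 of ovariectomized females, libraries I to L had 96.4 to 112 CPM of Igf1, 69.2 to 78.7 CPM of Igfbp3 and 266 to 446 CPM of Igfbp7, and M to P had 25.7 to 47.0, 7.69 to 20.6 and 91.6 to 173 CPM. The 3 genes did not overlap between these ranges, but they were picked by their values among the tested members. How many of all genes did the same was not counted. Igf1r, Igf2r, Igfbp4, Igfbp5 and Igfbp6 did overlap, Igfbp6 with 395 to 679 CPM in I to L and 368 to 1013 CPM in M to P. Epithelial markers, mostly Krt18, summed to 4.94 to 13.6 CPM in I to L and 162.5 to 443 CPM in M to P, ASC1a markers to 178 to 290.3 CPM and 108 to 143.5 CPM, and the macrophage markers Cd68, Cd14, Cd163 and Ptprc to 85.6 to 125 CPM and 52.0 to 72.1 CPM, and their part was not tested.

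In castrated males, libraries I and J stood apart in both populations. In ASC2 they had 261 and 234.5 CPM of Igf1 where K to P had 38.3 to 84.1 CPM, and in ASC1 127 and 109.8 CPM of Igfbp7 where K to P had 423 to 606 CPM. In ASC1 the same libraries had 43.1 and 42.1 CPM of Igf1, below K to P at 53.3 to 139.8 CPM. These libraries were singled out after their values were seen, and no test was made. How many of all genes set them apart was not counted. In ASC2 the 4 macrophage markers summed to 189.9 to 642 CPM in libraries I to L and 133 to 140 CPM in M to P. In ASC1 they summed to 62.8 to 80.5 CPM and 76.6 to 109.9 CPM, and their part was not tested.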
